A study of Mus musculus with 89 samples.

Results

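The genes described here are 40 genes of G2 and mitosis, taken as listed by symbol and found among the 24411 genes of the deposited tables; all 40 were found. The rule is the list of names and uses no measured value, though the list was drawn up with earlier results of these data known. They were followed cell by cell in 89 single cells of the mouse dentate gyrus, a region of the hippocampus in which neural stem cells make new neurons in the adult. The series asks what early ageing does to these stem cells and the cells they give rise to, and the older age (4.5 months) gave 41 cells, the younger (2 months) 48. Each cell was sorted on its own, amplified with a full-length template-switching kit and sequenced.

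All mice were homozygous Nestin:CFPnuc animals (B6.Cg-Tg(Nes-CFP)1Enik/J, on C57BL/6), so cells of both ages carried the nuclear fluorescent reporter, which is driven by regulatory sequence of Nestin, a gene of neural stem and progenitor cells. No treatment was named, and propidium iodide was added in the sort to mark dead cells. A deposited table gives each cell a class, read here as intermediate progenitor cell (IPC), activated neural stem cell (aNSC) and quiescent neural stem cell (qNSC), and how the classes were drawn is not stated; they presumably rest on the same expression values. The aNSC class was split at 10 counts of Pdgfra, the receptor gene that marks oligodendrocyte precursors. This gave 11 IPC cells, 7 Pdgfra-positive and 11 Pdgfra-negative aNSC cells, and 60 qNSC cells. No animal is named, so each age was treated as 1 sample, cells were not taken as replicates, and no test was run: SDs give the spread between cells.

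A cell that has copied its DNA enters mitosis when cyclin-dependent kinase 1, bound to B cyclins, becomes active. Aurora and Polo kinases, kinetochore proteins and mitotic kinesins then build the spindle and attach the chromosomes to it, and the spindle checkpoint holds back the anaphase-promoting complex until all are attached. Many of these genes are kept silent in resting cells through promoter elements bound by repressor complexes and are switched on together late in the cycle, which is why they mark dividing progenitors in the dentate gyrus.

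Promoters were looked up in RefSeq (GRCm38.p6) and were found for 33 of the 40 genes; the others are Ccna2, Cdc25c, Aurkb, Incenp, Kif20a, Tpx2 and Smc4. Each entry runs from 250 bases before to 50 bases after the gene's start. It was searched on both strands for CCAAT, the box bound by factor NF-Y, and for TTTGAA, the core of the cell cycle genes homology region. A gene was counted when any of its listed starts held the motif, and the letters of the motifs do not overlap in any of the stretches shown. CCAAT was found in 25 of 33 promoters (75.8%), against 43.5% of the promoters of the 8954 genes that 5 or more cells had read. At least 2 copies of CCAAT were found in 18 (54.5%), against 17.2%. TTTGAA was found in 25 (75.8%), against 13.6%, and both motifs in 21 (63.6%), against 5.63%. Within the 120 bases before the start, 9 promoters held both (27.3%), against 1.36%. A match is a description of these letters and not of binding.

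The 120 bases before the RefSeq start are shown for 5 of these 9 genes, as examples. The others, Cks1b, Bub3, Ube2c and Prc1, also hold both motifs within the 120 bases before a listed start. Motifs and levels did not always go together. Bub3 was detected in 33 of 60 qNSC cells, and Birc5, Mad2l1, Nuf2 and Nusap1 held neither motif in the whole window. Whether the motifs go with the levels was not tested. They read 5′ to 3′ on the strand of the gene, with CCAAT (or ATTGG, its other strand) and TTTGAA (or TTCAAA) in capitals. Cdk1 is from chr10:69352913-69353032, Cdc20 from chr4:118437344-118437463, Ect2 from chr3:27153879-27153998 and Top2a from chr11:99024190-99024309, all on the minus strand, and Kif11 from chr19:37376262-37376381 on the plus strand. The last bases of the Cdk1 and Cdc20 stretches lie inside the gene as GENCODE draws it.
Cdk1: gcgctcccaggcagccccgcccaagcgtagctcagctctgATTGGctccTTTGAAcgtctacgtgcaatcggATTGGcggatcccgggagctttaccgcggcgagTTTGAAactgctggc
Cdc20: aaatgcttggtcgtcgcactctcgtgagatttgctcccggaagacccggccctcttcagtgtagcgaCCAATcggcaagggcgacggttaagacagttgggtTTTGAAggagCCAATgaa
Kif11: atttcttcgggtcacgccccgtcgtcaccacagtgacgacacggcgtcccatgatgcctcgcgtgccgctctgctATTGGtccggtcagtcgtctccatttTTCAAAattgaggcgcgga
Ect2: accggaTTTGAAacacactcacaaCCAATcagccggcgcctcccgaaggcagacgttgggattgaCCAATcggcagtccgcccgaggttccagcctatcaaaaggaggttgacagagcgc
Top2a: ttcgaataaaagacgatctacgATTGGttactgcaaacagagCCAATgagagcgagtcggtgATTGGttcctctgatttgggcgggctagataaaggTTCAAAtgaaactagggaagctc
Top2a has 3 copies of CCAAT in this stretch, Cdk1, Cdc20 and Ect2 have 2 and Kif11 has 1. Cdk1 has 2 copies of TTTGAA and the other 4 genes have 1.

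Cells held between 234607 and 1896072 counts (median 912391) and showed between 2156 and 6046 genes. The median total was 952296 in IPC, 944913 in Pdgfra-positive aNSC, 798669 in Pdgfra-negative aNSC and 918275 in qNSC cells. The classes were set against marker lists. Of 6 intermediate progenitor markers, IPC cells had 1 to 6 at 10 or more reads, and none was read in any Pdgfra-positive aNSC cell. Of 8 oligodendrocyte precursor markers, Pdgfra-positive aNSC cells had 7 or 8 at 10 or more reads, against 0 to 2 in Pdgfra-negative aNSC cells, and Sox10, Neu4 and Lhfpl3, like Pdgfra itself, had no read in Pdgfra-negative cells. The aNSC label of the Pdgfra-positive cells is therefore kept only as the name of the deposited class. By the GENCODE annotation of mm10, Cdk1 lies at chr10:69335146-69352938, Ccnb1 at chr13:100778650-100786570, Bub3 at chr7:131560222-131571895, Ube2c at chr2:164769898-164778822 and Top2a at chr11:98992943-99024189. Since strand was not recorded, some reads of Ccna2, Cdc20, Ube2c, Kif20a, Nusap1, Prc1 and Ncapd2 may belong to neighbours with overlapping exons. Cells are named here by age and by a number in the order of deposit.

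A gene was counted as detected in a cell at 10 or more reads, and by this count the mitosis genes were present either nearly singly or many together. Of the 89 cells, 81 had 0 to 5 of the 40 genes and 8 cells had 13 to 40, with no cell between. IPC cells had 1 to 40 genes with a median of 5, Pdgfra-positive aNSC cells 0 to 19 with a median of 1, Pdgfra-negative aNSC cells 1 to 13 with a median of 2, and qNSC cells 0 to 4 with a median of 1. At least 10 genes were detected in 5 of 11 IPC cells (45.5%, exact Clopper-Pearson 95% interval 16.7 to 76.6), 2 of 7 Pdgfra-positive aNSC cells (28.6%, 3.67 to 71.0) and 1 of 11 Pdgfra-negative aNSC cells (9.09%, 0.23 to 41.3). No qNSC cell reached even 5 genes: taking 3 counts as the limit for a count of 0, 0 of 60 allows a share of up to 5%, and the exact 95% interval ends at 5.96%. These intervals and limits cover counting error only.

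**Figure D1:**
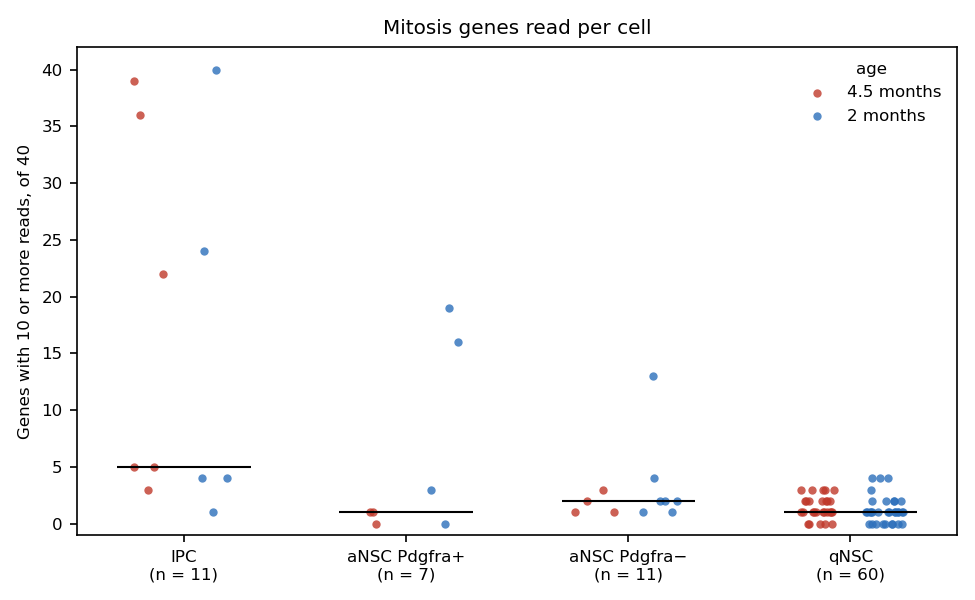
Number of the 40 mitosis genes with 10 or more reads (vertical axis) in each cell of the 4 groups (horizontal axis), with 4.5-month cells in red and to the left of 2-month cells in blue; each point is 1 cell and the bar is the group's median. The 8 cells at 13 to 40 genes lie in IPC and in the 2 aNSC groups, and every qNSC cell is at 4 or below.

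The 5 IPC cells with at least 10 genes did not carry the same amount. The 2-month cell 45 had all 40 genes and a summed level of 27109 TPM, the 4.5-month cell 24 had 39 genes and 34769 TPM, and the 4.5-month cell 14 had 36 genes and 14235 TPM. The 2-month cell 43 had 24 genes and 4201 TPM, and the 4.5-month cell 6 had 22 genes and 3870 TPM. By summed level, the first 3 of these cells thus stood more than 3-fold above the other 2. These 5 IPC cells, the 3 aNSC cells that follow and their numbers are used without the age in the accounts of single genes. In the aNSC class the sums were smaller: 2606 TPM with 19 genes in the Pdgfra-positive 2-month cell 39, 1710 TPM with 16 genes in the Pdgfra-positive 2-month cell 44, and 2264 TPM with 13 genes in the Pdgfra-negative 2-month cell 48. For comparison, the highest sum in any qNSC cell was 1221 TPM and the median qNSC cell had 157 TPM. In the cell with the highest sum, the 2-month cell 33, 2 genes were detected, and Bub3 alone made 1050 TPM.

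**Figure D2:**
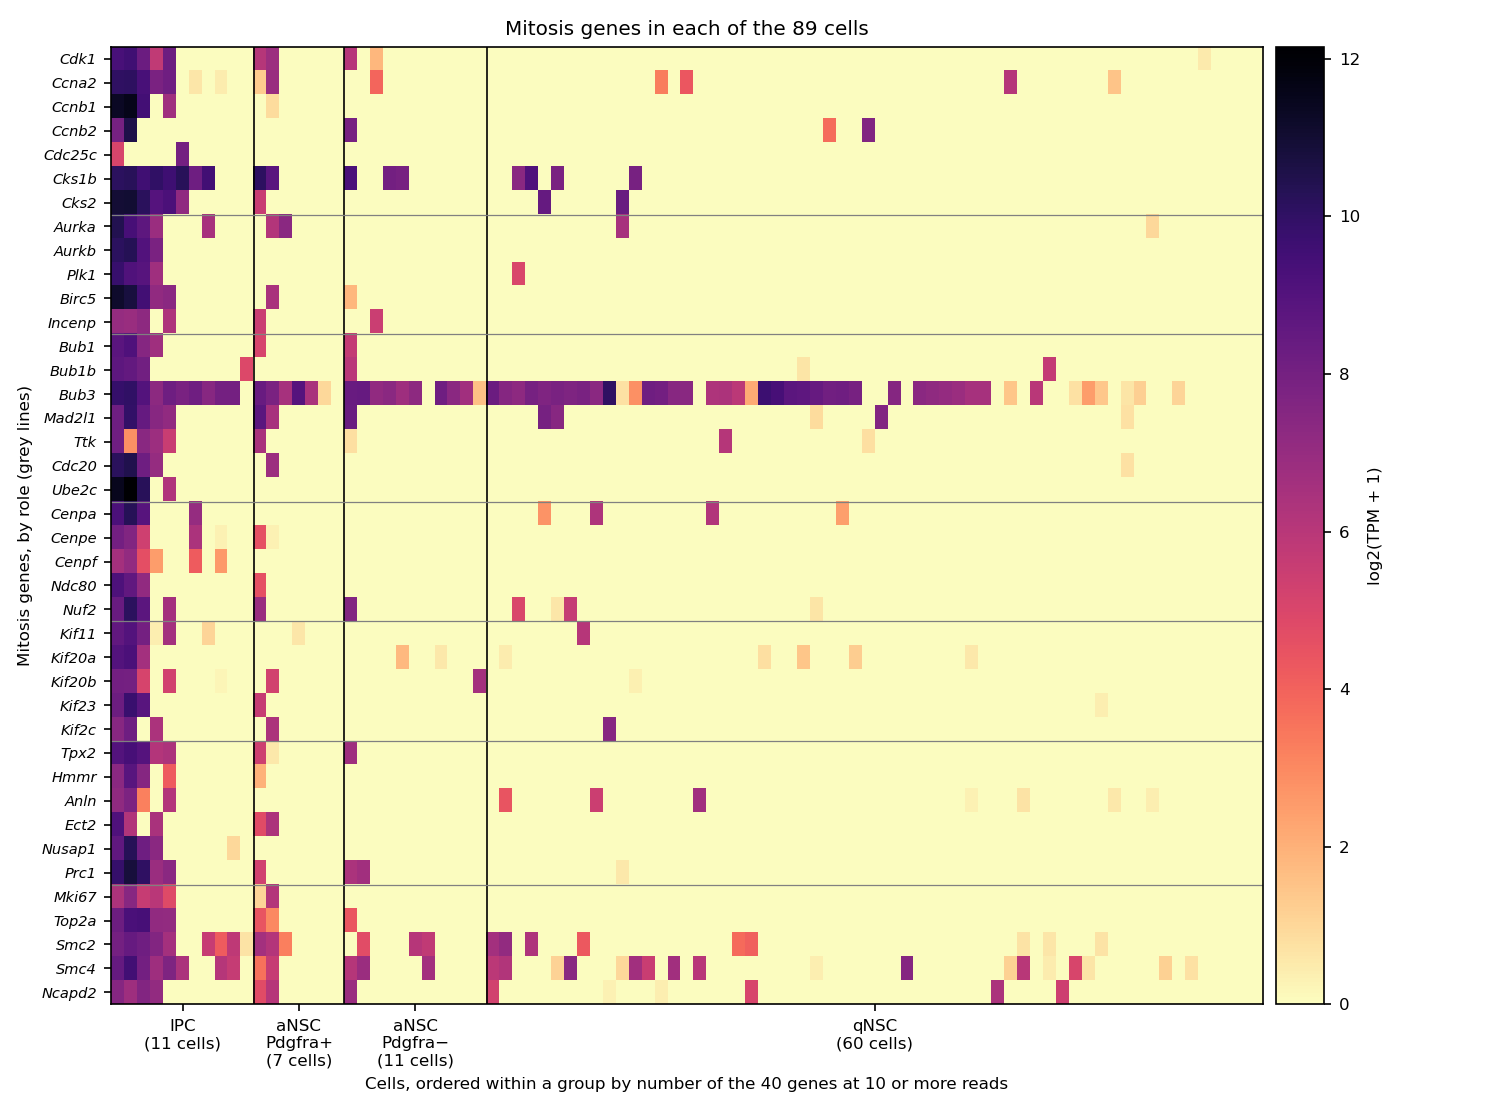
Level of each of the 40 mitosis genes (rows, grouped by role) in each of the 89 cells (columns), as log2(TPM + 1) by colour; cells are ordered within each group by the number of the genes at 10 or more reads. The left 5 columns of IPC carry most rows, the left columns of the 2 aNSC groups carry part of them, and among qNSC cells Bub3 is the row that is filled in many cells.

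The 8 cells also carried the genes of DNA replication, which precede mitosis in the cycle. Of a list of 49 replication genes of G1/S, the cells with 13 to 24 mitosis genes had 40 or more: 47 in the IPC 4.5-month cell 6, 46 in the IPC 2-month cell 43, 46 and 43 in the Pdgfra-positive 2-month cells 39 and 44, and 40 in the Pdgfra-negative 2-month cell 48. The cells richest in mitosis genes had 40 (2-month cell 45), 41 (4.5-month cell 14) and 27 (4.5-month cell 24). In 4.5-month cell 24 the replication genes summed to 6872 TPM beside 34769 TPM of mitosis genes, while in 4.5-month cell 6 they summed to 22505 TPM beside 3870 TPM. Among the other 6 IPC cells, the 4.5-month cells 12, 13 and 17 had 25, 20 and 11 replication genes with 5, 5 and 3 mitosis genes, and the 2-month cells 25, 11 and 5 had 31, 15 and 7 with 4, 4 and 1. The 2-month cell 25 had the lowest total of the class, 312948 counts.

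**Figure D3:**
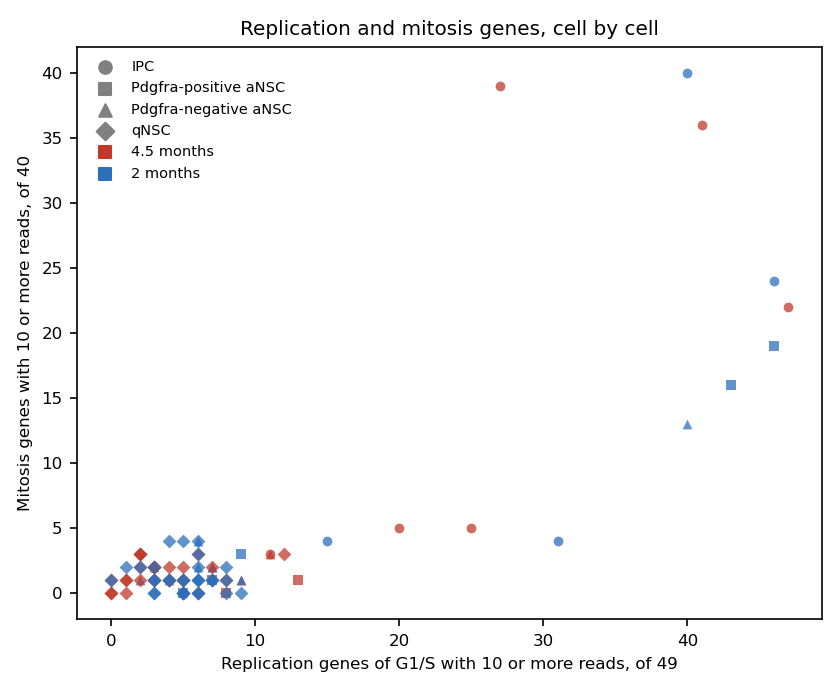
Number of the 40 mitosis genes at 10 or more reads (vertical axis) against the number of the 49 replication genes of G1/S (horizontal axis); each symbol is 1 cell, its shape gives the group and its colour the age. The 8 cells with 13 or more mitosis genes have 27 to 47 replication genes, and cells with 15 to 31 replication genes and at most 5 mitosis genes are IPC.

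The cells differed in identity as well. Of the 5 IPC cells with at least 10 genes, 4 had Eomes, the transcription factor that defines intermediate progenitors, at 56 to 395 reads. The exception was the 2-month cell 45, the cell with all 40 genes. In it the intermediate progenitor markers Eomes, Neurog2, Igfbpl1, Mfap4 and Neurod4 had no read and Insm1 had 71. Of the neuroblast markers, Sox11 had 225 and Dcx 36 reads, while Neurod1, Stmn2 and Calb2 had none. Of the stem cell markers, Sox9 had 211, Id4 56, Sox2 55, Hes5 25 and Aldoc 1, while Hopx, Gfap and Nes had none. The Pdgfra-negative 2-month cell 48 had 5 of 8 stem cell markers and 2 of 6 intermediate progenitor markers at 10 or more reads. Among them were 1891 reads of Hopx, 226 of Gfap, 1199 of Mfap4 and 93 of Neurog2, with none of Sox2, Nes, Hes5 or Eomes. The Pdgfra-positive 2-month cells 39 and 44 had 699 and 1389 reads of Pdgfra and 86 and 248 of Sox10. Each had 3 of 8 stem cell markers at 10 or more reads: Aldoc (487 and 122), Hes5 (25 and 263) and Sox2 (25 and 37). Hopx, Gfap, Sox9, Id4 and Nes had no read in either cell.

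Among cyclins and the regulators of Cdk1, Cdk1 and Cks1b were detected in all 8 cells and the other 5 genes in some of them. Cdk1, the kinase that drives entry into mitosis, was detected in each of the 8 cells and in no other cell. Its level was 638, 747, 306, 53.8 and 297 TPM in IPC cells 45, 24, 14, 43 and 6, against 67.8 and 113 TPM in Pdgfra-positive cells 39 and 44 and 65.3 TPM in Pdgfra-negative cell 48. The 5 IPC cells did not lie wholly above the aNSC cells, since IPC cell 43 was the lowest of the 8. Ccnb1, the main B cyclin partner of Cdk1, was detected in 4 IPC cells alone: 2596 TPM in cell 45, 2984 in cell 24, 708 in cell 14 and 104 in cell 6. It had 1 read in the Pdgfra-positive cell 44 and none in Pdgfra-negative aNSC or qNSC cells. Ccna2, the A cyclin of S phase and G2, was detected in all 5 of these IPC cells at 222 to 1074 TPM, and also at 119 TPM in the Pdgfra-positive cell 44, at 14.1 TPM in the Pdgfra-negative 4.5-month cell 23 and at 8.8 to 67.2 TPM in 3 qNSC cells. Ccnb2, the second B cyclin, was uneven: 1506 TPM in IPC cell 24, 244 TPM in IPC cell 45, 235 TPM in the Pdgfra-negative cell 48 and 194 TPM in 1 qNSC cell, with no read in IPC cells 14, 43 and 6.

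Cks1b and Cks2 encode small subunits that bind cyclin-dependent kinases. Cks1b was the most widely detected of the 7 genes of this role, in 8 of 11 IPC, 2 of 7 Pdgfra-positive aNSC, 3 of 11 Pdgfra-negative aNSC and 4 of 60 qNSC cells. Its IPC level was 0 at the lowest, 748 TPM at the median and 1206 TPM at the highest, and among the IPC cells it also appeared in 3 with at most 5 mitosis genes, at 1186, 286 and 723 TPM. Cks2 was detected in 6 IPC cells at 145 to 2034 TPM, in 1 Pdgfra-positive aNSC cell at 45.4 TPM and in 2 qNSC cells at up to 357 TPM. Cdc25c, a phosphatase that activates Cdk1, was the rarest of the 40, with reads in only 2 cells: 32.5 TPM in IPC cell 45 and 258 TPM in the IPC 4.5-month cell 12, which had 5 genes in all.

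Aurora and Polo kinases and the chromosomal passenger complex were found chiefly in IPC. Aurkb, the kinase of the passenger complex, was read in 4 cells, all IPC: 1130 TPM in cell 45, 1286 in cell 24, 534 in cell 14 and 227 in cell 43. Its partner Birc5 (survivin) was detected in the 5 IPC cells at 143 to 2215 TPM and at 84.5 TPM in the Pdgfra-positive cell 44. Plk1, the Polo kinase of centrosome maturation and cytokinesis, was at 105 to 892 TPM in the same 4 IPC cells as Aurkb and at 31.7 TPM in 1 qNSC cell. Aurka, the centrosomal Aurora kinase, reached 1389 TPM in IPC cell 45. It was at 70.1 and 160 TPM in 2 Pdgfra-positive aNSC cells and at 87.2 TPM in 1 qNSC cell, while no Pdgfra-negative aNSC cell had a read. Incenp, the scaffold of the passenger complex, stayed lower per length, at most 149 TPM in IPC.

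In the spindle checkpoint, 1 gene behaved unlike all the others. Bub3, a checkpoint protein that binds Bub1 and Bub1b at kinetochores, was read in 69 of 89 cells and detected in 57. It was detected in 10 of 11 IPC, 5 of 7 Pdgfra-positive aNSC, 9 of 11 Pdgfra-negative aNSC and 33 of 60 qNSC cells. Its lowest, median and highest levels were 0, 257 and 1028 TPM in IPC, 0, 92.3 and 498 TPM in Pdgfra-positive aNSC, 0, 148 and 347 TPM in Pdgfra-negative aNSC, and 0, 78.6 and 1050 TPM in qNSC cells. The groups overlapped over nearly their whole range. Of the 79 detections of any of the 40 genes in qNSC cells, out of 2400 gene and cell pairs, 33 were Bub3. Over the 89 cells its log2(TPM + 1) had a Pearson r of 0.31 with the mean of the other 39 genes, next to the lowest, 0.29 for Cdc25c, while Top2a and Birc5 had 0.95; r describes cells that share libraries and depth and has no p.

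The other checkpoint genes were detected in fewer cells. Bub1, a checkpoint kinase of the kinetochore, was detected in IPC cells 45, 24, 14 and 43, in the aNSC cells 39 and 48, and in no qNSC cell. Bub1b, its relative, was at 269 to 424 TPM in IPC cells 45, 24 and 14, at 29.1 TPM in the IPC 2-month cell 5, at 60.6 TPM in the Pdgfra-negative cell 48 and at a detected level, 127 reads, in 1 qNSC cell, with no read in IPC cells 43 and 6. Mad2l1, the checkpoint protein that sequesters Cdc20, was detected in 5 IPC cells at 143 to 971 TPM, 2 Pdgfra-positive aNSC cells at 88.6 and 436 TPM, 1 Pdgfra-negative aNSC cell at 323 TPM and 3 qNSC cells at 171 to 246 TPM. Ttk, the kinase that starts checkpoint signalling, reached 278 TPM in IPC cell 45.

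Cdc20 activates the anaphase-promoting complex and Ube2c is the enzyme that delivers ubiquitin to it. Cdc20 was at 1172, 1414, 294 and 126 TPM in IPC cells 45, 24, 14 and 43 and at 112 TPM in the Pdgfra-positive cell 44. Ube2c had the highest level of any of the 40 genes in any cell, 4548 TPM in IPC cell 24, with 2837 TPM in cell 45, 1180 TPM in cell 14 and 73.7 TPM in cell 6. No aNSC or qNSC cell had a read of Ube2c.

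**Figure D4:**
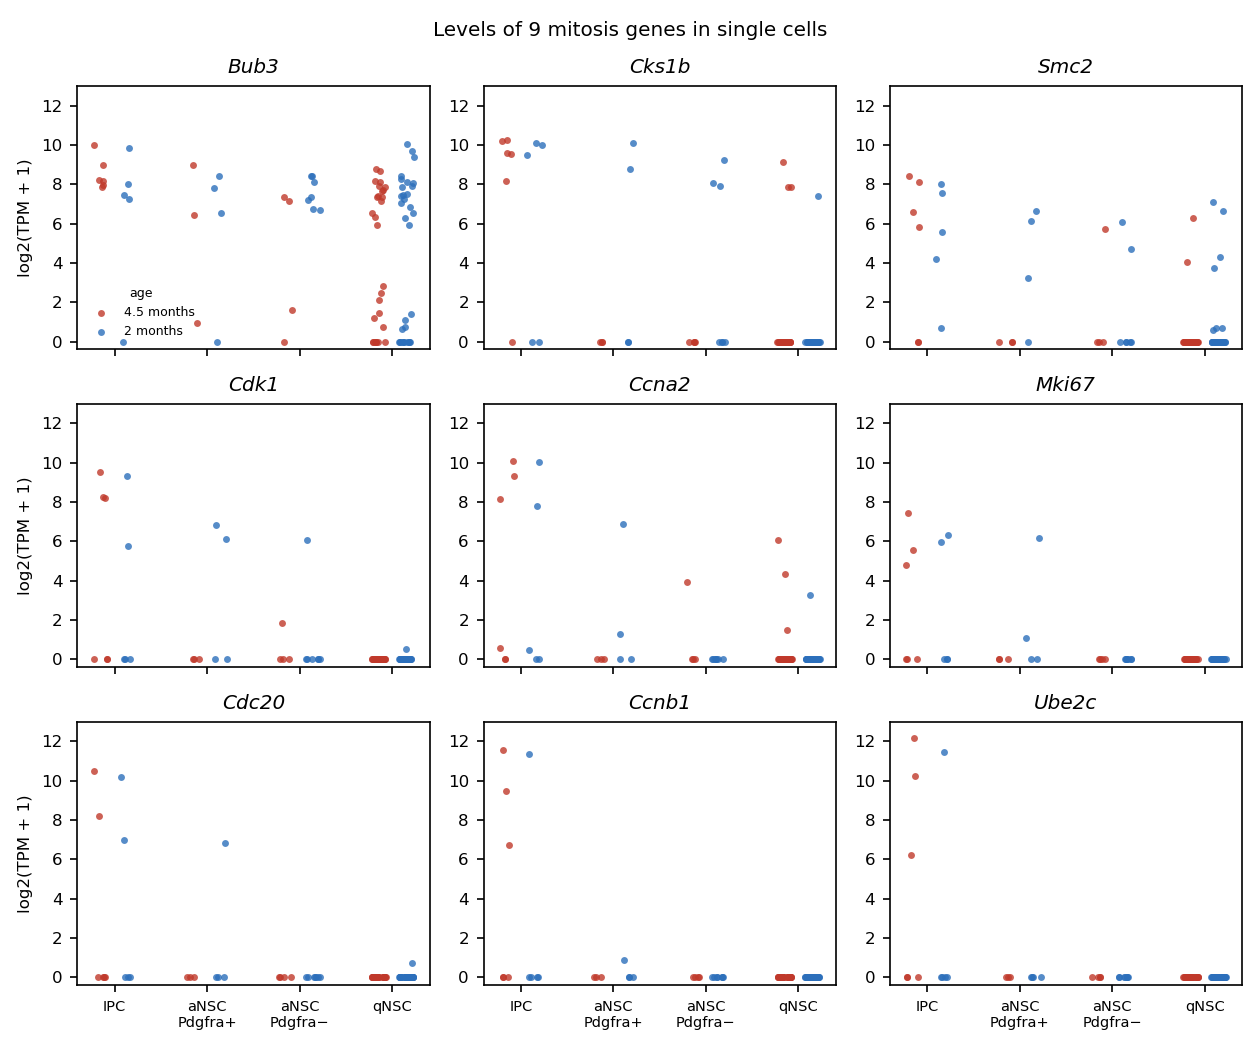
Level of 9 of the genes in every cell, as log2(TPM + 1) on the vertical axis, in the 4 groups on the horizontal axis, with 4.5-month cells in red to the left of 2-month cells in blue; each point is 1 cell. Bub3 is filled in all groups, Cks1b and Smc2 in some cells of each, Cdk1, Ccna2 and Mki67 mainly in IPC and a few aNSC cells, and Cdc20, Ccnb1 and Ube2c almost only in IPC.

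At the centromere, genes of the outer kinetochore and of the centromere itself were detected in 3 to 6 IPC cells each. Cenpa, the centromeric histone H3 variant, reached 1243 TPM in IPC cell 24, and was also at 78.2 and 72.7 TPM in 2 qNSC cells. Nuf2 and Ndc80, subunits of the complex that grips microtubules, reached 1114 TPM (cell 24) and 581 TPM (cell 45). Cenpe, a kinetochore motor, and Cenpf, a large kinetochore protein, had no read in any qNSC cell and reached 263 and 134 TPM. The IPC 4.5-month cell 13 had 5 genes in all, and 3 of them were Cenpa, Cenpe and Cenpf.

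Each of the 5 mitotic kinesins was detected in 3 or 4 IPC cells. Kif20a and Kif23, motors of the central spindle, were detected in IPC cells 45, 24 and 14 alone within IPC, at 99.0 to 597 TPM and 298 to 876 TPM. Kif11, which pushes spindle poles apart, and Kif20b, a motor of cytokinesis, were each detected in 4 IPC cells, at up to 509 and 260 TPM. Kif2c, a microtubule depolymerase, was at up to 294 TPM in 3 IPC cells, and 1 qNSC cell had 431 reads of it, equal to 171 TPM.

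Spindle and cytokinesis proteins were led by Prc1, a bundler of the central spindle, at 116 to 1764 TPM in 5 IPC cells, against 38.4 TPM in 1 Pdgfra-positive and 81.5 and 99.8 TPM in 2 Pdgfra-negative aNSC cells. Nusap1, a spindle microtubule protein, reached 1230 TPM and Tpx2, the activator of Aurora A, 658 TPM, both in IPC cell 24. Hmmr, a spindle assembly factor, reached 454 TPM in that cell, and none of Nusap1, Tpx2, Hmmr and Ect2 had a read in qNSC cells. Ect2, the exchange factor that starts the cleavage furrow, was detected in 3 IPC cells at 72.4 to 555 TPM and in the Pdgfra-positive cells 39 and 44 at 26.2 and 80.2 TPM. Anln, a furrow scaffold protein, was at up to 213 TPM in IPC and was detected in 3 qNSC cells at 20.8 to 100 TPM, but in no aNSC cell. Of these qNSC cells, the 4.5-month cell 34 had 5 of 5 oligodendrocyte markers at 10 or more reads. The 4.5-month cell 1 had 2 and the 2-month cell 12 had 1. Whether cell 34 belongs to its deposited class was not tested.

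Among the genes of chromosome structure, Mki67 and Top2a had no read in qNSC cells while the condensin genes did. Mki67, the coat protein of mitotic chromosomes used as the standard proliferation marker, was detected in the 5 IPC cells at only 27.1 to 174 TPM and in 1 Pdgfra-positive aNSC cell at 70.2 TPM; no Pdgfra-negative aNSC or qNSC cell had a read. Top2a, the topoisomerase that untangles sister DNA, was detected in exactly the same 8 cells as Cdk1, at 134 to 660 TPM in IPC and 7.0 to 20.9 TPM in the 3 aNSC cells. Smc2 and Smc4, the core pair of condensin, were each detected in 8 IPC cells, and in 6 and 10 qNSC cells at up to 137 and 177 TPM. Ncapd2, a condensin I subunit, was detected in 4 IPC cells and in 4 qNSC cells. In the qNSC 2-month cell 22, Smc2, Smc4 and Ncapd2 were detected together, at 98.1, 59.7 and 36.7 TPM.

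Classes were compared by the difference in mean log2(CPM + 1), the ratio of summed CPM and the share of cells with a read. A gene counted as higher when the difference was at least 1, the ratio at least 2 and the share at least 15 percentage points higher, and as lower by the same limits the other way. The background was the 11740 genes that had reads in 5 or more cells, 36 of the 40 among them; Cdc25c, Aurkb, Ube2c and Ndc80 had reads in fewer cells but were kept in the counts over the 40.

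Most of the genes were higher in IPC than in Pdgfra-negative aNSC cells. Of the 40 genes 37 were higher and 0 lower, where 14.8% of background genes were higher and 14.7% lower. The median difference over the 40 was 3.18 and over the background 0. Smc2 had the largest, with a mean log2(CPM + 1) of 6.39 ± 4.00 in IPC against 1.97 ± 3.39 in Pdgfra-negative aNSC cells (SD, n = 11 cells each). Top2a was at 4.52 ± 5.23 in IPC and 0.55 ± 1.83 in Pdgfra-negative aNSC cells, a difference of 3.97. For Ccnb1, with no read in Pdgfra-negative aNSC cells, the summed CPM in IPC was at least 2283-fold higher, taking 3 counts over the group as the floor, and at least 1266-fold higher without the 4.5-month cell 24. The spread is wide because cells either carried these genes or did not.

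The 3 genes that missed the limits were Ccnb2, with a difference of 0.94, Bub3, with 1.46 and reads in 10 of 11 cells in each group, and Kif20a, with 2.21 and reads in 3 IPC against 2 Pdgfra-negative cells. By role, all 5 Aurora, Polo and passenger genes, all 5 centromere genes, all 6 spindle and cytokinesis proteins and all 5 chromosome structure genes were higher, as were 6 of 7 cyclins and Cdk1 regulators, 6 of 7 checkpoint genes and 4 of 5 kinesins. Leaving out any 1 cell kept the count between 36 and 38. Most genes of 2 further lists were higher as well, with all cells kept. These were 42 of 49 replication genes, with a median difference of 2.90, and 53 of 76 other mitosis genes, with a median of 2.50. In the last list Hmgb2, a chromatin protein, and Racgap1, a partner of Kif23 at the central spindle, had the largest differences, 6.52 and 6.47. Pttg1 (securin, the inhibitor of separase) was the 1 gene lower, with a difference of -2.15.

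**Figure D5:**
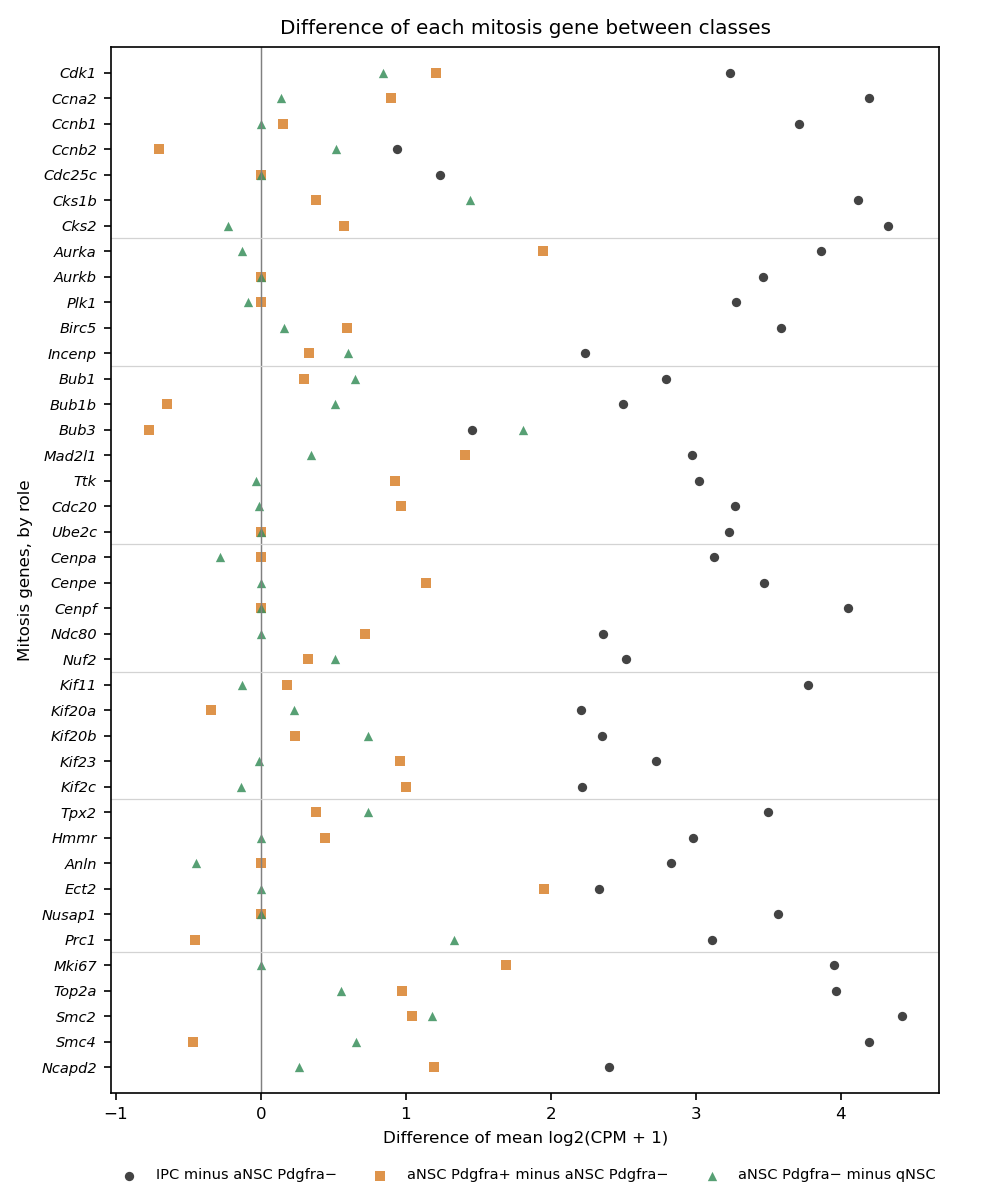
Difference in mean log2(CPM + 1) (horizontal axis) for each of the 40 genes (rows, grouped by role) in 3 comparisons of classes, 1 symbol each. All 40 circles, IPC minus Pdgfra-negative aNSC, lie right of 0, while the triangles, Pdgfra-negative aNSC minus qNSC, lie near 0 for most genes.

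Few of the genes passed these limits between Pdgfra-negative aNSC and qNSC cells. Only Cks1b and Prc1 were higher and 0 were lower, where 11.7% of background genes were higher and 2.37% lower, and the median difference was 0 over the 40 and 0.41 over the background. Cks1b had reads in 3 of 11 Pdgfra-negative aNSC cells against 4 of 60 qNSC cells, a difference of 1.44, and Prc1 in 2 of 11 against 1 of 60, a difference of 1.33. Neither call was steady: in 4.5-month cells alone the differences were -0.73 for Cks1b and -0.030 for Prc1, with a pseudocount of 10 the count was 0, and without the 2-month cell 48, or without the 2-month cell 4, it was 1. Of the 49 replication genes, 13 were higher in Pdgfra-negative aNSC cells. Bub3 had a difference of 1.81 but a ratio of summed CPM of 1.23. Most of the 40 genes were read in too few qNSC cells to be called lower by the limit on the share of cells. The count of 0 lower therefore says little about them.

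Pdgfra-positive against Pdgfra-negative aNSC cells gave 4 genes higher, Aurka, Cenpe, Ect2 and Mki67, and 0 lower, where 17.1% of background genes were higher and 11.9% lower. The share of the 40 that was higher, 10%, lay below that of the background. Each of the 4 had reads in 2 of 7 Pdgfra-positive cells and in no Pdgfra-negative cell. For Cenpe, however, 2-month cell 44 held only 1 read, and for Mki67 2-month cell 39 held only 6. At 10 or more reads these 2 genes were thus detected in 1 of 7 cells each. The median difference was 0.36 over the 40 and 0.15 over the background. With each age taken alone the groups held 3 to 7 cells, and the counts differed. In 2-month cells alone 14 genes were higher and 0 lower, and in 4.5-month cells alone 1 was higher and 5 lower. The share of background genes called in each age alone is not given here, so these counts cannot be set against it. With a pseudocount of 10, 2 were higher. The count depended on single cells too: it was 11 without 4.5-month cell 15, 10 without 4.5-month cell 36, 12 without 4.5-month cell 38, 10 without 2-month cell 9, 11 without 2-month cell 46 and 9 without 2-month cell 48, and without 2-month cell 39 there was also 1 gene lower. All 8 oligodendrocyte precursor markers, of which Pdgfra made the split, were read in Pdgfra-positive cells, summing to 7719 to 17300 CPM against 0 to 212 CPM in Pdgfra-negative cells, and their part in these differences was not tested.

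The ages were compared within each group. Age also went with the sex-linked genes: Xist or Tsix was detected in 37 of 41 cells of the older mice against 0 of 48 of the younger, and a Y-linked gene in 0 of 41 against 38 of 48, so that age and sex cannot be told apart. Median totals were 884721 counts at 4.5 months and 949981 at 2 months. At least 10 of the genes were detected in 3 of 6 IPC cells at 4.5 months, against 2 of 5 at 2 months. In the aNSC class all 3 such cells were from 2 months: 0 of 3 Pdgfra-positive cells at 4.5 months against 2 of 4 at 2 months, and 0 of 4 Pdgfra-negative cells at 4.5 months against 1 of 7 at 2 months. With so few cells, the exact 95% interval of 0 of 4 ends at 60.2% and that of 0 of 3 at 70.8%; taking 3 counts as the limit gives 75% and 100%.

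In IPC, 6 genes were higher at 4.5 months (Incenp, Ube2c, Cenpa, Nuf2, Hmmr and Smc4) and Ect2 was lower, where 9.37% of background genes were higher and 18.2% lower. The median difference was 1.13 over the 40 and -0.10 over the background. Nuf2 was read in 3 of 6 cells at 4.5 months against 1 of 5 at 2 months, and Ect2 in 1 of 6 against 2 of 5. The counts rested on single cells. Without the 4.5-month cell 24, 0 genes were higher and 8 lower, and without the 2-month cell 45, 27 were higher and 0 lower. Without 4.5-month cell 12, 13 or 17, 13 were higher each time (2 lower without cell 12), and without 4.5-month cell 14, 2 were lower. Without 2-month cell 5 or cell 11, 3 were higher (2 lower without cell 11), and without 2-month cell 43, 10 were higher and 0 lower. The median difference ranged between 0.0085 (without 4.5-month cell 24) and 2.77 (without 2-month cell 45). In thinned cells 3 genes were higher and 2 lower.

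In Pdgfra-positive aNSC cells 0 genes were higher and 25 lower at 4.5 months, where 13.2% of background genes were higher and 24% lower, with a median difference of -1.64 over the 40 and 0 over the background. All 25 had no read in the 3 cells at 4.5 months. Without the 2-month cell 39, 15 genes were lower and the median difference was 0, and with a pseudocount of 10, 12 were lower. The median was -1.04 without the 2-month cell 44. Smc2, read in 3 of 4 cells at 2 months, had the largest difference, -5.27. The replication genes lay the same way, with 36 of 49 lower.

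In Pdgfra-negative aNSC cells, Ccna2, Incenp and Kif20b were higher at 4.5 months and Cks1b, Bub3 and Prc1 lower, where 14.4% of background genes were higher and 16.8% lower; the median difference was 0 over the 40 and 0 over the background. Each of the 3 higher genes was read in 1 of 4 cells at 4.5 months and in none of 7 at 2 months. Bub3 had a mean log2(CPM + 1) of 4.18 ± 3.90 at 4.5 months (SD, n = 4 cells) against 7.80 ± 0.84 at 2 months (SD, n = 7 cells), with reads in 3 of 4 and 7 of 7 cells. Without 4.5-month cell 23, 1 gene was higher, and without 2-month cell 4, 15, 20, 21, 23 or 24, 11 were lower each time. With a pseudocount of 10, 1 was higher, and in thinned cells 12 were lower.

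In qNSC cells 0 genes were higher and 0 lower at 4.5 months, where 1.57% of background genes were higher and 3.61% lower; the median difference was 0 over the 40 and -0.09 over the background. No test stands behind this count, which is of sizes only. Most of the 40 genes were read in too few qNSC cells to meet the limit on the share of cells in either direction. Of the 40, 16 had a difference of exactly 0. The counts of 0 and the median of 0 thus largely follow from how few qNSC cells had reads. For these genes they cannot show that the ages are alike. Bub3 was read in 21 of 28 cells at 4.5 months, against 22 of 32 at 2 months, with a median of 70.1 TPM against 84.6 TPM. Smc4 was read in 11 of 28 cells against 7 of 32. However, the 4.5-month cells 7, 16, 18, 22, 20 and 3 held only 4, 3, 3, 1, 1 and 2 reads of it. The 2-month cells 13 and 31 held 1 each. At 10 or more reads Smc4 was detected in 10 qNSC cells, as many at 4.5 months as at 2 months.

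The deposited table also colours the cells, with 25 green, 26 red and 9 blue qNSC cells, with no key to the colours in the sources used here. Between green and red qNSC cells 0 of the 40 genes were higher and 0 lower, where 5.12% of background genes were higher and 3.06% lower, and the median difference was 0 over the 40 and 0.04 over the background. Bub3 had the largest difference, with a mean log2(CPM + 1) of 5.96 ± 3.56 in green cells (SD, n = 25 cells) and 4.04 ± 3.76 in red cells (SD, n = 26 cells), and was read in 21 of 25 and 18 of 26 cells. Its ratio of summed CPM was 1.51, below the limit of 2. Most of the other genes were read in too few green and red cells to meet the limit on the share of cells. For them the counts of 0 cannot show that the colours are alike. In 4.5-month cells alone 2 of the genes were higher and 2 lower, with no background share given for that age alone. In the 9 blue cells Bub3 was read in 4, at a median of 0 TPM, and no blue cell had more than 1 of the 40 genes at 10 reads.

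The genes outside the set whose log2(TPM + 1) lay closest to the mean of the 40 over the 89 cells were Esco2 (Pearson r 0.93), Ckap2l (0.92), Shcbp1 (0.91), Pbk (0.91), Mxd3 (0.90), Atad2 (0.89), Ckap2 (0.88), D17H6S56E-5 (0.86), Spc24 (0.84) and Kif15 (0.83), among genes that 9 or more cells had read. Each was detected in 7 to 9 cells, 4 to 6 of them IPC. Esco2 acetylates cohesin in S phase, Spc24 is a partner of Ndc80 and Nuf2 in the kinetochore and Kif15 is a spindle kinesin.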

How the data were processed

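The tools STAR and RSEM and the build mm10 are given, per the submitters' processing notes, without versions. The deposited tables hold estimated counts and TPM (length-scaled abundance, summing to 1000000 in every cell), and a further one gives classes and colours. Estimated counts that were not whole, 4.44% of those above 0 (tolerance 1e-06), were rounded. They were scaled to CPM, counts per 1000000, and taken as log2(CPM + 1). The 40 genes, the gene lists and the marker lists were chosen with earlier results of these data known. All 40 genes may be named; of the lists of other genes, those with the 2 largest and 2 smallest differences in IPC against Pdgfra-negative aNSC cells were eligible, and the 10 genes most alike. The kit has no molecular identifiers, so reads are not independent molecules. No doublet caller was run, since cells were sorted singly, and 0 columns of the tables belonged to no sample. The kit does not record strand, so reads of 7 of the genes that share exons with a counted neighbour are uncertain: Ccna2 with Exosc9, Cdc20 with Elovl1, Ube2c with Tnnc2, Kif20a with Cdc23, Nusap1 with Oip5, Prc1 with Rccd1 and Ncapd2 with Scarna10. For 3 of them, Ccna2, Kif20a and Nusap1, some counts were not whole. Gene positions are those of GENCODE M21. Alternatives were the deposited TPM, a pseudocount of 10, totals without the 50 highest genes, cells counted at 10 reads, cells thinned to 444835 reads (80 cells reach it, 9 left out), each age alone, the undivided aNSC class, every gene with a read as background and, chosen after seeing the data, each cell of groups of up to 11 cells left out. The procedure was run on simulated data, with changes set in genes read in a middle share of the cells and each switched on by itself. Most of the 40 genes were read in fewer cells and came on together, so the run does not cover their case. Python 3.11.15, pandas 2.3.3, numpy 2.4.6 and scipy 1.17.1 were used.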

Additional observations from a re-analysis of the deposited data

Results flagged for a closer look

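In all, 3 values stood apart from the other cells of their group by Dixon's 95% criterion, among 14 pairs of group and measure examined. The criterion served only as a rule for pointing out cells. Cells either carried these genes or did not, and the 14 pairs share cells, so no rate expected by chance is given. In IPC at 2 months, cell 45 had a summed level of 27108.6 TPM over the 40 genes, and the next of the 5 cells had 4201 TPM. In Pdgfra-negative aNSC at 2 months, cell 48 had 13 of the genes at 10 or more reads, and the next of the 7 cells had 4. The same cell had a summed level of 2264 TPM, with 587 TPM in the next. The 2-month cell 45 had no read of Eomes, and the 2-month cell 48 had 1891 reads of Hopx beside 1199 of Mfap4; whether either belongs to its deposited class was not tested.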

How the results depend on the processing

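No paired analysis was possible because no label pairs cells and the comparisons rest on no test. Apart from leaving out single cells, 153 of 166 recomputed counts and medians stayed within 1.5 times or 1 SD of the value reported. This limit was loose: the SD was that between single cells, which was wide in IPC, and counts that stayed at 0 were included. The others were as follows. With a pseudocount of 10, the genes higher in Pdgfra-negative aNSC against qNSC cells numbered 0, those higher in Pdgfra-positive against Pdgfra-negative aNSC cells 2, those lower at 4.5 months in Pdgfra-positive aNSC cells 12 and those higher at 4.5 months in Pdgfra-negative aNSC cells 1. With the undivided aNSC class, 4 were higher than in qNSC cells. In thinned cells, 3 were higher and 2 lower at 4.5 months in IPC, and 12 lower in Pdgfra-negative aNSC cells. In 4.5-month cells alone, Pdgfra-positive against Pdgfra-negative aNSC cells gave 1 higher and 5 lower, and green against red qNSC cells 2 higher and 2 lower; in 2-month cells alone the first of these gave 14 higher. In 4.5-month cells alone, Cks1b (-0.73) and Prc1 (-0.030) changed direction in Pdgfra-negative aNSC against qNSC cells. Leaving out 1 cell at a time gave 36 to 38 higher and medians of 2.49 to 3.56 in IPC against Pdgfra-negative aNSC cells; 1 to 3 higher in Pdgfra-negative aNSC against qNSC cells; 4 to 12 higher, 0 to 1 lower and medians of 0 to 0.65 in Pdgfra-positive against Pdgfra-negative aNSC cells; 0 to 27 higher, 0 to 8 lower and medians of 0.0085 to 2.77 between ages in IPC; 15 to 26 lower and medians of -2.22 to 0 in Pdgfra-positive aNSC cells; and 1 to 3 higher and 3 to 11 lower in Pdgfra-negative aNSC cells. The causes were not tested. No background share is set beside these recomputed counts. Groups of 3 to 11 cells, 1 sample per age and shallow cells limit all counts.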
